A study of Caenorhabditis elegans with 2 samples.

Results

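The regions described here are 674 peaks of an eGFP fusion of C16A3.4 that lie in promoters shared by divergent genes on the worm's autosomes. A peak was included when its summit lay more than 200 bp from any tRNA gene and inside the promoter windows of at least 2 protein-coding genes, at least 1 on each strand. That window covers the 1000 bp before a gene's annotated 5′ end and the first 200 bp after it. The members made up 20.9% of the 3220 peaks in the authors' thresholded list and 25.6% of its 2636 autosomal peaks, with a Wilson 95% interval of 23.9 to 27.3% on the second share. All intervals given here cover counting error only.

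The study immunoprecipitated chromatin from whole L1 larvae of Caenorhabditis elegans, sexes mixed, and sequenced the DNA from 2 biological replicates. Every animal came from strain OP345, which carries the unc-119(ed3) allele on chromosome III and the transgene wgIs345 with the tagged C16A3.4, and there was no second genotype, stage or treatment. The labels do not state which promoter drives the tagged protein, whether the endogenous copy was still present, or in which cells the fusion was made. With 1 group of 2 samples no test between conditions was possible, so the values below are counts, shares and levels, and neighbouring peaks or genes are not replicates.

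Divergent genes are neighbours that are transcribed away from each other, so that the DNA between their 5′ ends serves as upstream sequence for both. The worm genome is compact and many such pairs sit close together, often pairing genes of unrelated function. Many worm messages are also trans-spliced, which replaces the first stretch of the transcript by a short leader, so that an annotated 5′ end can lie downstream of where transcription starts. C16A3.4 is listed in the annotation as znf-622, a zinc finger gene with yeast and human relatives that help the large subunit of the ribosome to mature in the cytoplasm.

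Sequences from 3 sets of promoters show what lies under these summits. The first set gives the summit and the 50 bases on either side of it for the 4 strongest members, read on the plus strand of WBcel235 (ce11) from the RefSeq genome. Capitals mark 4 short words that were common at the members' summits, on either strand: GCGC, then CGCTCC with its complement GGAGCG, then TGCGTC with its complement GACGCA, and GAGAGA with its complement TCTCTC. The strongest peak lay at chrIV:654870-654970 between rpl-15, a protein of the large ribosomal subunit, and K11H12.8. The next lay at chrII:8561384-8561484 between iff-2, an eIF5A gene of translation elongation, and F54C9.14. The window at chrIII:10759192-10759292 separates tasp-1, a gene for a threonine aspartase, from K01G5.10. The window at chrIV:4750014-4750114 separates rpl-20, another large-subunit protein gene, from Y17G9B.5.
rpl-15 and K11H12.8: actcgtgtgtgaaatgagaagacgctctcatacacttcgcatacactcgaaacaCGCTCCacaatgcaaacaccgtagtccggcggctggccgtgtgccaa
iff-2 and F54C9.14: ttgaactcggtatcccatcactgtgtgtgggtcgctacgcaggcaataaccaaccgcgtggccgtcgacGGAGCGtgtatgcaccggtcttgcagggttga
K01G5.10 and tasp-1: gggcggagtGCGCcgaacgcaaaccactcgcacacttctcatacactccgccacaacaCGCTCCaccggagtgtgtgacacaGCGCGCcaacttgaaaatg
rpl-20 and Y17G9B.5: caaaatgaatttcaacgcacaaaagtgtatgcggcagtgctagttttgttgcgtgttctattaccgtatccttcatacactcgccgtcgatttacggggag
The windows of rpl-15, iff-2 and tasp-1 each held 1 CGCTCC or its complement, the tasp-1 window also held 3 copies of GCGC, and the rpl-20 window held none of the marked words. Their G+C content was 53.5%, 58.4%, 59.4% and 44.6% in that order.

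The second set gives whole promoters, all bases between the annotated 5′ ends, for 3 closely spaced pairs. In these, capitals also mark the complement of TTTCAG where it stands at the very start, on the minus-strand gene's side. TTTCAG is the worm's typical splice acceptor sequence, and trans-splicing joins the leader directly after such an acceptor. The first is rps-22, a gene for a small ribosomal subunit protein, with polh-1, a gene for the translesion DNA polymerase eta, at chrIII:1950270-1950534. The others are pdtf-1 with T26A8.4 at chrIV:8432894-8433037, and eef-1G, which encodes the gamma subunit of elongation factor 1, with ctf-4 at chrV:10965540-10965718.
polh-1 and rps-22: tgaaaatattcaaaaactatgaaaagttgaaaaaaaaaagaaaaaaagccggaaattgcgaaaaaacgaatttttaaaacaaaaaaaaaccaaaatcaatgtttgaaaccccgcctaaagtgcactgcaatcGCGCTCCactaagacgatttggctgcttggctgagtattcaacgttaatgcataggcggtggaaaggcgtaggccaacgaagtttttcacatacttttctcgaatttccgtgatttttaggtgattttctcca
T26A8.4 and pdtf-1: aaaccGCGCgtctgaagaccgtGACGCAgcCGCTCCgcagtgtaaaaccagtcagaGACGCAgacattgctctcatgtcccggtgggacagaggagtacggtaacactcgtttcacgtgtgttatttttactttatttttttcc
ctf-4 and eef-1G: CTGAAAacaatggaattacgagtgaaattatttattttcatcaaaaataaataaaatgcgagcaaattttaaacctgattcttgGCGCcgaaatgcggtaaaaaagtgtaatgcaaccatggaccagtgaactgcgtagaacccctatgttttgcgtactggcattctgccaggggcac
The summit lay at base 148 of 265 in the promoter of polh-1 and rps-22, at base 68 of 144 in that of T26A8.4 and pdtf-1, and at base 145 of 179 in that of ctf-4 and eef-1G. The promoter of ctf-4 and eef-1G carried the acceptor letters directly before the 5′ end of ctf-4, and the others had none at either end.

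A last set holds pairs with a chromatin or a proteasome gene. It shows the summit windows of set-16, a gene for a histone methyltransferase of the MLL kind, with drr-2, at chrIII:13643672-13643772; of htz-1, the gene for histone H2A.Z, with wapl-1, a cohesin release factor, at chrIV:4445863-4445963; and of rpn-3, a proteasome lid subunit, with hsp-110, a heat shock protein gene, at chrIII:8447125-8447225.
drr-2 and set-16: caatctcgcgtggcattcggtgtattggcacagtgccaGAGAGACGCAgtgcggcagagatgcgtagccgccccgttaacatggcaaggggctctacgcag
wapl-1 and htz-1: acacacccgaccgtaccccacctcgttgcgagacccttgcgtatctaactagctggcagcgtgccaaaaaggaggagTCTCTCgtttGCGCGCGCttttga
hsp-110 and rpn-3: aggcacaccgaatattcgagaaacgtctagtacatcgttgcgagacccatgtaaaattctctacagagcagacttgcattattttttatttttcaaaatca
The set-16 window held GAGAGA running into GACGCA, the htz-1 window held 3 overlapping GCGC copies and 1 GAGAGA, and the rpn-3 window held none of the marked words. The htz-1 and rpn-3 windows both held GAGACC, a word that was noticed by reading them.

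The members were among the stronger peaks of the list. Signal is the authors' value per peak, on a scale that is not stated. Its median over members was 103, with quartiles of 72.3 and 162 and a range of 48.6 to 805. The median was 87.8 over the 972 autosomal peaks in the window of a single gene and 72.4 over the 835 autosomal peaks outside all promoter windows. Of the members, 436 (64.7%) stood among the strongest 1610 peaks, against 52.2% of the single-gene peaks and 37.0% of those outside. They held 37 of the 100 strongest places and 9 of the 20 strongest. The 40 autosomal peaks in windows of several genes on 1 strand were close to the members. Their median was 97.6, and 62.5% stood among the strongest 1610.

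The replicates' own lists put members, single-gene peaks and peaks outside in the same order. In replicate 1 the median signal at matched summits was 47.7 for members, 38.2 for single-gene peaks and 30.1 for peaks outside. In replicate 2 it was 56.8, 53.1 and 46.6. The 40 peaks of several genes on 1 strand had medians of 42.8 in replicate 1 and 62.9 in replicate 2, the latter above the members. The gap between members and single-gene peaks was thus wider in replicate 1 than in replicate 2, while the quartiles of the classes overlapped in both.

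The strongest members lay beside genes of the translation machinery. The peak between rpl-15 and K11H12.8, at chrIV:654783-655053, reached 805 in the thresholded list, against 303 in replicate 1 and 500.1 in replicate 2. The peak of iff-2 and F54C9.14, at chrII:8561297-8561560, had 747, 316 and 429 in the same order. The peak of tasp-1 and K01G5.10, at chrIII:10759106-10759403, had 711, 280 and 437, although neither gene belongs to that machinery by name. Each replicate ranked the rpl-15 peak among its 5 strongest. The peak of rpl-20 and Y17G9B.5, at chrIV:4749938-4750206, had 677, 313 and 367. The peak of rps-12, a small-subunit gene, and ska-3, a spindle and kinetochore gene, had 620.1, 256 and 361. Replicate 2 was the higher replicate at each of these 5 peaks.

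The next 5 members were more mixed in the roles of their genes. The peak of rps-20 and ekl-4, a gene for a chromatin factor related to DMAP1, reached 551, with replicate values of 279 and 282. The peak of wip-1, a WASP-interacting protein gene, and larp-1, a La-related RNA-binding protein gene, had 476, 180.3 and 306. The peak of nduc-2 and Y71H2AM.20 had 475, 226 and 252 and was the only one of the 20 strongest with its summit in an intron. The replicates were level at rps-20 and furthest apart, among these 3, at larp-1. The peak of eef-1A.1, the gene for elongation factor 1-alpha, and rfc-4, a clamp loader subunit for DNA replication, had 468, 204 and 265. The peak of rps-1 and ifet-1, a binding partner of the cap-binding protein eIF4E, had 464, 171 and 302. The other 10 of the 20 strongest had signals of 334 to 459 and lay between hsr-9 and rps-19, lin-54 and rpl-12, tag-340 and nhl-2, rpn-3 and hsp-110, kbp-4 and rab-18, cct-1 and mig-5, rpl-22 and ify-1, rps-22 and polh-1, pdtf-1 and T26A8.4, and F36A2.9 and rps-15. These partners include lin-54, a subunit of the DREAM repressor complex, mig-5, a dishevelled protein of Wnt signalling, and ify-1, the securin. Replicate 2 was above replicate 1 at all 20.

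**Figure D1:**
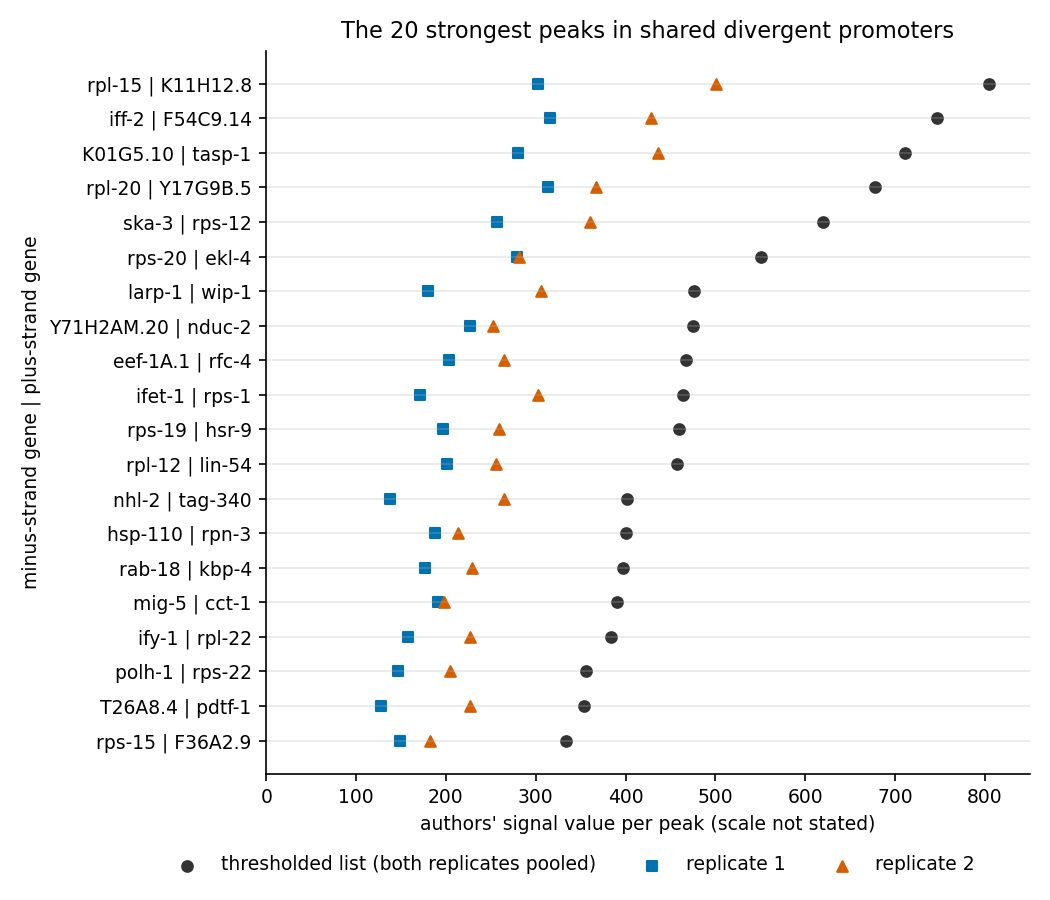
Signal of the 20 strongest members (horizontal axis, authors' signal value, scale not stated) in the thresholded list (circles), replicate 1 (squares) and replicate 2 (triangles), with the minus-strand and plus-strand gene of each promoter on the vertical axis. The thresholded value exceeds both replicate values in every row, from 805 at rpl-15 to 334 at rps-15, and replicate 2 lies above replicate 1 in every row.

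Some members were uneven between the replicates. The 3 weakest members lay between unc-69 and ostf-4 (48.6), F22G12.4 and F22G12.5 (48.8), and cogc-8 and fnta-1 (48.9), and the last had no summit within 100 bp in the whole list of replicate 1. The member whose ranks differed most was that of unc-69, a gene for axon guidance, with a signal of 8.04 in replicate 1 and 38.4 in replicate 2. The peaks of T05A12.3 and T05A12.4 (8.85 and 42.2), K04F10.3 and mut-2 (9.45 and 85.0, with a thresholded signal of 95.7 that is not among the weak ones), haps-1 and smg-1 (9.58 and 53.7), and cct-4 and nst-1 (11.9 and 39.3) followed. All 5 lay below the members' first quartile in replicate 1, which was 32.3. In replicate 2 that quartile was 39.5, and the unc-69 and cct-4 peaks lay just below it and the others above.

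Most members were found in both replicates. The thresholded list was itself derived from these replicates by the irreproducible discovery rate, so a high match is partly built into the choice of peaks. Of the 674, 540 (80.1%, interval 76.9 to 83.0%) had a summit within 100 bp among the 3220 strongest peaks of each replicate, where the share over all thresholded peaks was 67.7%. It was 71.1% for single-gene peaks and 53.4% for peaks outside promoter windows. Peaks of several genes on 1 strand had 80.0% (32 of 40, interval 65.2 to 89.5%), close to the members. Replicate 1's strongest list held a match for 606 members and that of replicate 2 for 601, and 7 members had a match in neither. Among the strongest 436 members 98.9% matched in both, and the members were stronger than single-gene and outside peaks, so the share and the signal are not separate evidence. In the uncut lists of 30000 peaks each, 12 members had no match in replicate 1 and 3 had none in replicate 2. Matched summits lay a median of 7 bp and 8 bp from the member's summit. Over the 659 members matched in both uncut lists the replicate signals had a Spearman rho of 0.74, given as a description of peaks that share libraries, and replicate 2 was the higher at 492, with a median ratio of 1.32. By rank within its list, 404 members stood better in replicate 1 and 254 in replicate 2. The direction thus depended on whether signal or rank was read, and the depth of neither library is known.

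The divergent 5′ ends lay close together. The distance between the nearest 5′ end on each strand had a median of 471 bp, with quartiles of 299 and 702.5 bp and a range of -55 to 1659 bp, where a negative value means ends that overlap. The summit lay between these ends for 623 members (92.4%, interval 90.2 to 94.2%). It was a median of 136.5 bp upstream of the nearer end and 323 bp upstream of the farther. By annotation 616 summits lay between genes, 42 in a 5′ untranslated region, 7 in coding sequence, 7 in an intron and 2 in a 3′ untranslated region, and 47 also lay in an exon of a non-coding RNA, 1 of them an antisense RNA. The summit was the exact centre of the reported peak for 70.5% of members, so its position was often no finer than the peak's own bounds.

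The place of the summit changed with the spacing. Among the 208 members with ends 200 to 400 bp apart, the summit lay within 50 bp of the middle for 50% of them, and a median of 90 bp upstream of the nearer end. Among members with ends 600 to 800 bp apart the share near the middle was 15.97% and the nearer end was 189 bp away. Among the 62 with ends 800 to 1000 bp apart the values were 8.06% and 201.5 bp. A narrow gap leaves less room away from the middle, so part of this change follows from the spacing itself. In gaps of 600 to 800 bp and 800 to 1000 bp the median distance to the farther end was 489 bp and 679 bp. The median distance from the middle was 147.5 bp and 234.75 bp. Whether these values differ from an even spread of summits over the gap was not tested.

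**Figure D2:**
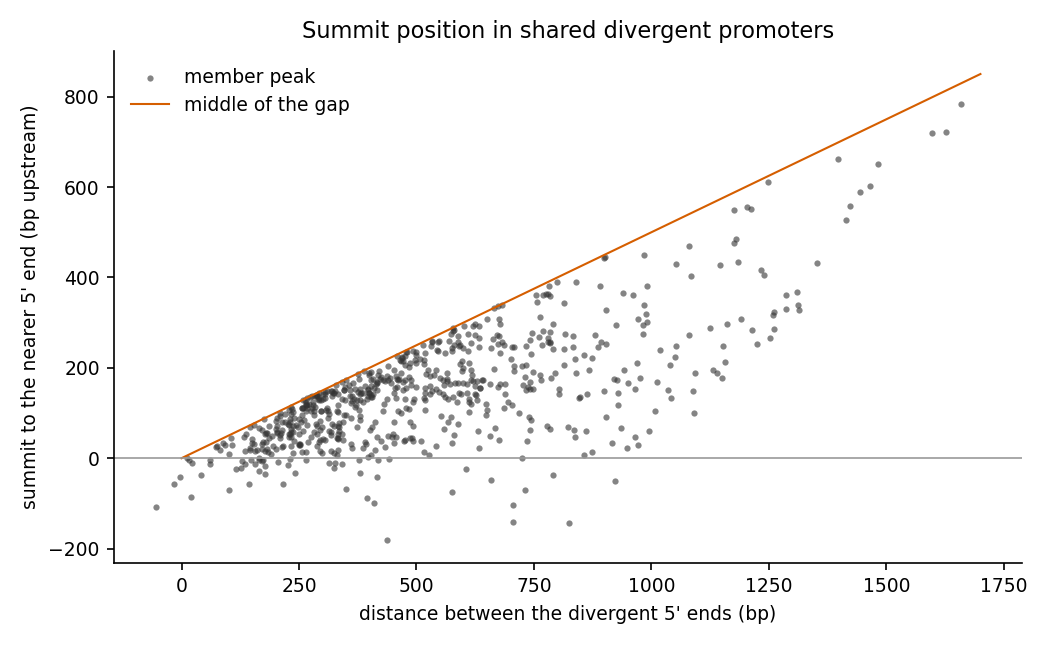
Distance from each member's summit to the nearer 5′ end (vertical axis, bp upstream, negative when the summit lies inside the gene) against the distance between the divergent 5′ ends (horizontal axis, bp); each point is 1 of the 674 members and the line marks the middle of the gap. The median distance below the line is 50.5 bp at spacings of 0 to 200 bp, 50.25 bp at 200 to 400 bp and 147.5 bp at 600 to 800 bp. At spacings of 0 to 200 bp, 40 of the 60 summits lie between the ends. The nearer end is a median of 189 to 244 bp away at spacings of 600 to 1200 bp.

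The extremes of spacing show this range. The ends of wrb-1 and Y50D4A.4 overlapped by the most, at -55 bp, and the peak had a thresholded value of 114, with 75.04 for replicate 1 and 27.9 for replicate 2. Those of pif-1 and rec-1 lay at -15 bp (69.6, 19.2 and 51.7) and those of Y54E10BR.2 and rpb-7, an RNA polymerase II subunit gene, at -3 bp (82.1, 19.4 and 52.8). At the other end, mif-4 and ipla-6 were 1659 bp apart (181, 71.5 and 132), F48G7.10 and pals-31 were 1626 bp apart (63.2, 15.96 and 46.9), and rab-5, a gene for early endosome fusion, and nmat-2 were 1598 bp apart (111, 39.4 and 76.3). The first of these 6 was the only one that replicate 1 gave the higher signal. In 7 pairs the shared promoter held 2 members, among them atx-2 and ecps-1, with signals of 309 and 109.6 at summits 571 bp apart. Of the members, 623 had 2 genes in reach, 50 had 3, and 1 had 4, the peak beside Y62E10A.20, Y62E10A.23, mdt-9 and lsm-3.

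The peaks on either side of the limits of the rule show where the choice of members stopped. The members with the most distant farther end lay 990 bp (ZK632.4 and gtap-2, signal 78.5), 987 bp (C24F3.2 and tram-1, 79.0) and 984 bp (C50B6.3 and nasp-2, 154) upstream of it. Just outside were usp-14 and vnut-1 at 1001 bp (73.0), T10E9.2 and T10E9.8 at 1003 bp (136) and ciao-1 and clec-104 at 1005 bp (69.2). On the tRNA limit the closest member, at Y38E10A.22 and Y38E10A.24, was 252 bp from a tRNA gene, and 2 peaks were left out, at pqn-71 and rocf-1 (31 bp) and at cpr-9 and gcy-33 (0 bp).

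Set against all divergent pairs, the members marked a part of them. The autosomes hold 2882 pairs of protein-coding genes on opposite strands whose windows overlap, and 717 of these (24.9%) held a member summit. The share was 6.12% (3 of 49 pairs, interval 2.10 to 16.5%) where the ends overlapped, 24.8% for pairs with ends 0 to 200 bp apart, 47.05% (interval 42.5 to 51.6%) from 200 to 400 bp and 44.3% (39.4 to 49.3%) from 400 to 600 bp. It was 35.4% from 600 to 800 bp, 24.8% from 800 to 1000 bp, 15.5% from 1000 to 1200 bp and 7.38% from 1200 to 1600 bp. From 200 to 1000 bp the shared window widened from a mean of 697 to 1106 bp while the share fell. Beyond that the window narrowed, to a mean of 194 bp past 1600 bp, where the share was 0.935%. The strongest 3220 peaks of replicate 1 gave 24.1% over all pairs and those of replicate 2 gave 23.4%, and both peaked between 200 and 400 bp, at 44.2% and 43.3%.

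**Figure D3:**
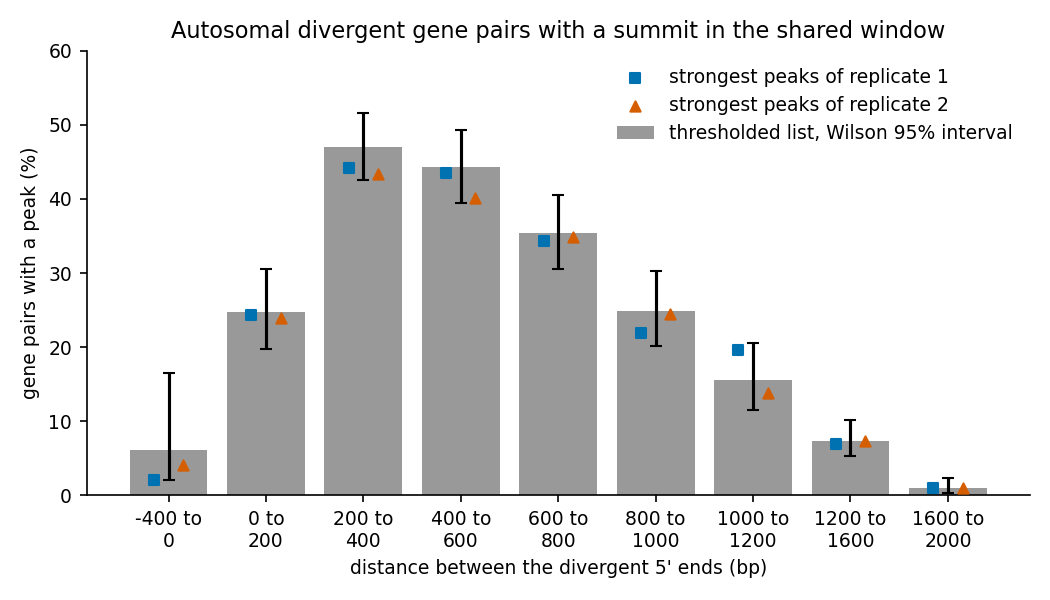
Share of autosomal divergent gene pairs with a summit in the shared window (vertical axis, %) by the distance between their 5′ ends (horizontal axis, bp); bars give the thresholded list with Wilson 95% intervals, squares and triangles the strongest peaks of replicates 1 and 2. The share is highest from 200 to 600 bp (47.05% and 44.3%) and falls to 0.935% past 1600 bp in the thresholded list.

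Per length of DNA, shared promoters held more summits than promoters of single genes. The members fell in 1.97 Mb of shared window, or 342 per Mb, against 60.1 per Mb in 16.2 Mb of single-gene window and 13.04 per Mb in 64.04 Mb outside. Shared windows also lie closer to a 5′ end, so the classes were compared at equal distance. From 100 to 200 bp upstream of the nearest end the density was 902 per Mb in shared and 191 in single-gene windows. From 200 to 300 bp it was 533 and 137, and from 500 to 1000 bp it was 54.9 and 26.5. The density was thus higher in shared windows in each distance range, with the smallest ratio in the farthest. Of the 5285 genes with an overlapping opposite window, 29.1% had any thresholded peak, against 7.52% of the 11957 without one. Each summit in a shared window counts for at least 2 genes here, so that the 674 members gave 1384 genes. This raises the first share, because a gene is also credited with summits that may belong to its partner.

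The members were spread over the 5 autosomes with unequal density. Chromosome III held 492 per Mb of shared window and chromosome I held 451, from 159 and 162 members. Chromosome II held 330 per Mb, chromosome IV 306 and chromosome V 215, the last from 118 members in 0.55 Mb. The median signal lay between 96.5 on V and 111.8 on IV.

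The genes beside the members were described by lists of symbols. Over all 17242 autosomal protein-coding genes, 8.03% (1384 genes) had a member in the window, and of the 5285 with an overlapping opposite window 26.2% did. Apart from the tissue marker lists, the shares ranged from 64.3% of chaperonin and prefoldin genes to 0.549% of chemoreceptor genes.

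Of 79 autosomal genes for cytosolic ribosomal proteins, 46 had a member (58.2%, interval 47.2 to 68.5%), 24 had another thresholded peak and 9 had none. Of the 53 with an overlapping opposite window, 86.8% had a member. The 43 peaks had a median signal of 218, and the range ran from 51.0 at rla-2, a stalk protein gene, to 805 at rpl-15. The summit was nearer to the opposite gene for 31 of the 46, with a median of 292 bp to the ribosomal protein gene and 233 bp to the opposite one. Pairs with a ribosomal protein gene on each side were rpl-24.1 with rps-10 (thresholded signal 269, replicates 106 and 164), rpl-36 with rps-14 (268, 98.1 and 166) and rpl-39 with rps-30 (161, 42.4 and 118.7). Each was higher in replicate 2. Other partners had a related role: lpd-7, a ribosome assembly gene, opposite rpl-9 (282, 87.1 and 195), and mrpl-49, a mitochondrial ribosomal protein gene, opposite rpl-28 (250.3, 140 and 118). Unrelated by name were col-38, a collagen gene, opposite rpl-5 (255, 92.7 and 162) and rab-11.1, a recycling endosome GTPase gene, opposite rpl-7 (211, 83.2 and 133).

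Other parts of the translation apparatus followed at lower signals. Translation factor genes had a member in 20 of 39 cases (51.3%), with a median signal of 120.1. After iff-2 and eef-1A.1 the strongest were eef-1G (323, 128 and 204 in the thresholded list, replicate 1 and replicate 2) and eef-2 (309.8, 132 and 175). Mitochondrial ribosomal protein genes had one in 22 of 70 (31.4%), with a median of 89.2, led by mrps-7 (291, 107 and 189). Ribosome biogenesis genes had one in 8 of 23, among them fib-1, the gene for fibrillarin, with its partner mut-15, a small RNA pathway gene (271, 115.02 and 155). Aminoacyl-tRNA synthetase genes had one in 6 of 32, led by ears-2 (233, 98.8 and 134). The median signal of the ribosome biogenesis peaks, 198, was the closest of these lists to that of the cytosolic ribosomal protein genes.

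Protein folding and turnover genes formed another such group. Chaperonin and prefoldin genes had a member in 9 of 14 (64.3%, interval 38.8 to 83.7%), led by cct-1 (390.2, 191 and 198), cct-8 (260.04, 114 and 147) and pfd-1 (253, 128 and 124). The summit was nearer to the opposite gene in 8 of these 9. Proteasome genes had one in 15 of 33 (45.5%), with the summit nearer to the proteasome gene in 11 of 15. Besides rpn-3 with hsp-110 (401, 188 and 214), pas-4, a core particle gene, shared its promoter with rpb-3, an RNA polymerase II subunit gene (258, 118.7 and 149). Heat shock and J-domain genes had one in 12 of 46, among them hsp-60, the mitochondrial chaperonin gene (297, 144 and 154). Ubiquitin genes had one in 10 of 58 (17.2%), led by ubq-2, whose product fuses ubiquitin to a ribosomal protein (176, 55.6 and 117). Among genes with an overlapping opposite window, 26.2% of all genes had a member. That share was 90% for chaperonin and prefoldin, 62.5% for proteasome and 52.2% for heat shock and J-domain genes. It was 35.7% for the 28 such ubiquitin genes, nearest to that of all genes.

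RNA, chromatin and transport genes were also above the share of all genes. Splicing genes had a member in 23 of 48 (47.9%), led by prp-8, a core spliceosome gene (263, 86.6 and 169), and by rsp-1 and rsp-2, SR protein genes that share 1 promoter (249, 72.1 and 174). Nuclear pore and transport genes had one in 14 of 40 (35.0%), led by npp-3 opposite top-2, a topoisomerase gene (242, 87.0 and 155), with the summit nearer to the opposite gene in 12 of the 14. RNA polymerase, Mediator and TFIID genes had one in 12 of 55 and chromatin genes in 10 of 54, led by set-16 (319.98, 132 and 189). Membrane traffic genes had one in 22 of 81 and cell cycle and replication genes in 16 of 57. The last group includes cyb-1, a cyclin B gene that shares its promoter with orc-5, an origin recognition gene (168, 57.9 and 110.2).

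Oxidative phosphorylation genes had a member in 15 of 42 (35.7%, interval 22.99 to 50.8%), led by the ATP synthase genes atp-1 (333, 117 and 208) and atp-2 (273, 138 and 132). Glycolysis and citric acid cycle genes had one in 4 of 30 (13.3%, interval 5.31 to 29.7%) and vacuolar ATPase genes in 2 of 17, intervals that include the share of all genes. The interval of the glycolysis list overlaps that of oxidative phosphorylation. The strongest of these were aco-2, an aconitase gene opposite eef-1B.1 (267, 84.8 and 183), and vha-8 (332, 118 and 212).

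Several large families had few members among the genes with a divergent partner, where the share of all genes was 26.2%. No interval was computed for these shares, and the collagen and neuropeptide shares rest on 36 and 15 genes. Of 68 histone genes, 64 had an overlapping opposite window and 8 had a member (11.8% of the 68 and 12.5% of the 64), in the 4 pairs his-67 with his-68 (126, 37.0 and 90.6), his-31 with his-32 (100.1, 41.7 and 57.5), his-59 with his-60 (71.1, 20.2 and 48.9) and his-3 with his-4 (55.2, 23.6 and 29.1). Histone genes are near-identical copies, so reads of these promoters may be shared among copies, which was not tested. Of 1276 chemoreceptor genes, 294 had such a window and 7 had a member (2.38% of the 294). Collagen genes had one in 5 of 129 (13.9% of those with such a window), nuclear hormone receptor genes in 5 of 246 (11.1%), detoxification genes in 3 of 171 (6.67%), homeobox genes in 2 of 45 (2 of the 8 with a partner window, close to the 26.2% of all such genes) and neuropeptide genes in 1 of 106 (1 of the 15 with such a window). Among the nuclear hormone receptor genes the strongest was nhr-142 (219, 93.5 and 124).

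Few genes of the 6 tissue marker lists had a divergent partner, and the shares of these lists could not be told from that of all genes. The neuron list had 1 gene of 19 with a member, the beta-tubulin gene tbb-1 (90.4, 38.4 and 61.9), and the germline list had 1 of 19, gld-3 (81.0, 25.4 and 54.3). None of 15 body wall muscle, 11 intestine, 12 hypodermis or 7 pharynx markers had one. The intervals of all 6 lists include the 8.03% of all genes. Of these 83 genes 16 had an overlapping opposite window, and 2 of the 16 had a member, beside 26.2% of all such genes. Neither znf-622 nor unc-119, the marker gene of the strain, had a thresholded peak in its window, and neither had an opposite partner in reach.

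**Figure D4:**
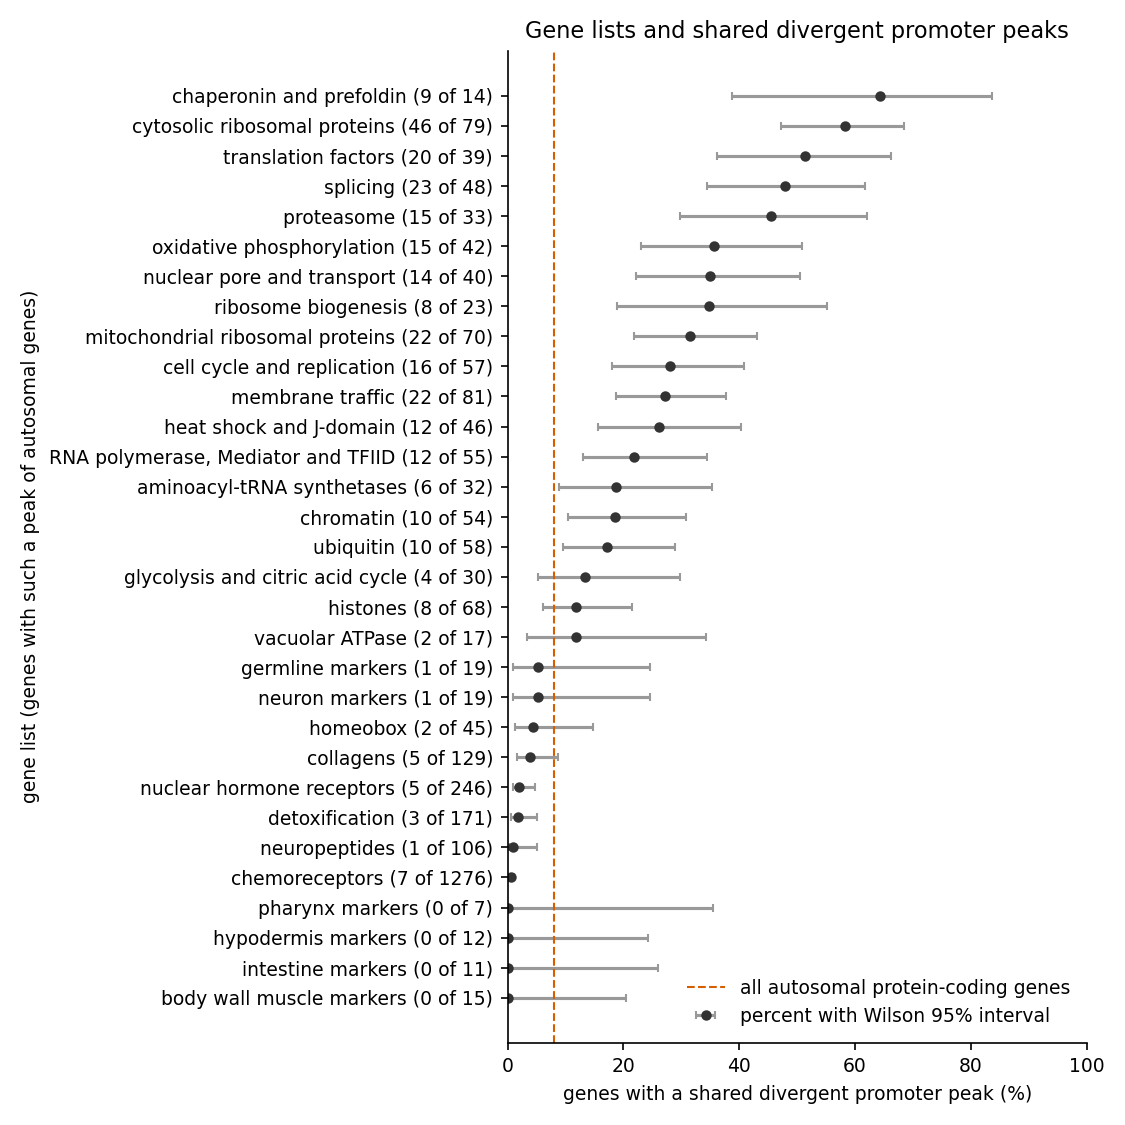
Share of the autosomal genes of each list with a member in the promoter window (horizontal axis, %, points with Wilson 95% intervals), with the count beside each list name; the dashed line is the 8.03% of all autosomal protein-coding genes. Chaperonin and prefoldin, cytosolic ribosomal protein, translation factor, splicing and proteasome genes lie above 45%, and the families of receptors, neuropeptides, detoxification enzymes and tissue markers have points below the line, with marker intervals that include it.

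The summits were rich in G and C in a narrow band. Over the windows of 50 bp to either side of the summit the mean G+C content was 45.8% ± 7.09 (SD over 674 peaks), against 38.5% in windows moved 500 bp to either side and 33.8% in windows centred 150 bp upstream of all autosomal protein-coding genes. Single-gene and outside peaks had 45.8% and 45.9%. Many of the moved windows lay past the annotated 5′ ends, since the farther end was a median of 323 bp from the summit. The profiles differed beside the summit: in 21 bp windows the members fell from 53.1% at the summit to 28.1% at 120 bp upstream on the plus strand and 28.2% at 120 bp downstream. Single-gene peaks fell from 51.4% to 31.1% and 32.0%, and peaks outside promoter windows from 48.2% to 39.5% and 39.3%. The strongest 168 members had 49.3% and the weakest 168 had 42.8% over the wider windows.

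**Figure D5:**
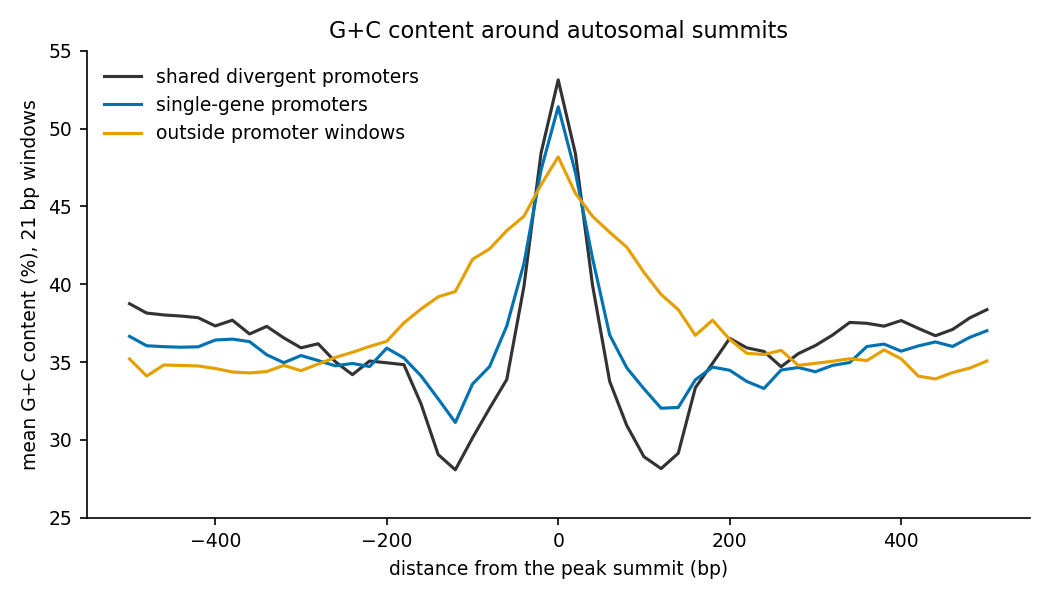
Mean G+C content in 21 bp windows (vertical axis, %) by distance from the summit (horizontal axis, bp, plus strand of the genome) for the members and the other autosomal classes. The members have the highest centre (53.1%) and the lowest flanks (28.1% and 28.2% at 120 bp), and peaks outside promoter windows change least.

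GCGC was the commonest of the marked words. It was present in 66.9% of the members' windows (interval 63.3 to 70.4%), 54.3% of single-gene, 33.4% of outside and 12.4% of all promoter windows, while windows shifted by 500 bp held it in 11.9%. Mean G+C content over the summit windows was 45.8% in members and 45.9% in peaks outside promoters, while the profiles around the summit differed. The part of base composition in the GCGC shares was not tested. At least 1 of the 4 marked words was in 80.0% of members' windows, 73.9% of single-gene, 66.0% of outside and 21.96% of promoter windows. Such words were thus frequent in each of these peak classes. They were marked because they were common at the members' summits.

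Longer words gave a finer view, without a test since they were chosen for their counts. Of 2080 words of 6 bases, both strands merged, those in at least 5% of members' windows were ranked by the ratio to the shifted windows. Many of these shifted windows lay past the annotated 5′ ends. The highest was ACGCGC, in 20.3% of members' and 0.816% of shifted windows, and single-gene peaks held it in 18.9%. GCGCAC was in 21.8% of members' and 13.4% of single-gene windows, a contrast picked from many words after the counts were seen. Words that were common in the strongest 168 members included CGCTCC, in 24.4% of these and 10.7% of the weakest 168. Another was ACCGTA, in 23.8% and 6.55%, and TGCGTC was in 23.8% and 11.3%. The contrast was smaller for GAGCGC, in 26.2% and 16.7%, and ACGCGC was in 17.3% and 19.6%. Choosing words by their share in the strongest members favours such contrasts. GAGACC, the word noticed in the htz-1 and rpn-3 windows, was in 23.8% and 6.55%, and over all members in 15.4% against 8.33% of single-gene and 3.07% of promoter windows. The G+C content of the strongest members was also higher, and its part in these shares was not tested.

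Words of known elements gave other contrasts. GAGAGA, a repeat bound by GAGA-type factors in flies, was in 16.02% of members' windows (interval 13.4 to 19.0%), 20.99% of single-gene and 39.0% of outside windows. CACGTG, the E-box, was in 2.08%, 4.01% and 9.70% of the same classes. These words were thus less frequent at members than at peaks outside promoters. TATAAA, the core of the TATA box, was in 3.71% of members' windows against 13.6% of promoter windows, and TGATAA, the core of many GATA factor sites, in 2.97% against 11.8%. Single-gene peaks held TATAAA in 4.53% and TGATAA in 4.12%, and outside peaks in 3.35% and 9.34%. Mean G+C content was 45.8% in members' and 33.8% in promoter windows, and its part in these shares was not tested. With the strongest peaks of replicate 1 alone, leaving out replicate 2, the members' shares of TATAAA and TGATAA were 6.20% and 4.54%, still below those of promoter windows. TTTCAG was in 7.57% of members' windows, 6.17% of single-gene, 5.15% of outside, 15.6% of promoter and 27.4% of shifted windows. A word in a window is a match of letters and not a shown site.

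The acceptor sequence was frequent at the members' genes. Of the 1334 genes nearest to a member on either strand, 626 (46.9%) had AG directly before the annotated 5′ end and 330 (24.7%) had TTTCAG, against 27.7% and 12.3% of all autosomal protein-coding genes. For 139 members both genes had AG there, and the median distance from the summit to the nearer end was 178 bp. For the 182 members where neither did, it was 88 bp. For the 353 with AG at 1 of the ends it was 135 bp, between the others.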

How the data were processed

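Peak lists from 2 samples of 1 group were used, on ce11. According to the notes deposited with them, peaks were called by the authors for either replicate and for both together, each with a control, and the authors derived the thresholded list by the irreproducible discovery rate (IDR). The signal per peak is the authors' deposited value on an unstated scale, and the −log10 q value was deposited too but not used to rank. The deposited summit offset placed each summit. No source used here gives the aligner, peak caller, settings or depth, and the lists hold no read counts.

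Summits were placed on Ensembl release 115 genes of WBcel235 (17242 autosomal protein-coding) with Python 3.11.15, numpy 2.4.6 and pandas 2.3.3. Base sequence came from the RefSeq genome of the same assembly. A summit was matched to a replicate's summit within 100 bp. Words were searched on both strands within 50 bp of the summit. The annotated 5′ end can lie away from the start of transcription. Intervals on shares, where given, are Wilson 95% intervals. No test was run, since 2 samples of 1 group allow none. Genes were named by rule: the 20 strongest members, the 3 weakest, the widest and narrowest spacings, members beside the rule's limits, the 5 with the most different replicate ranks, up to 4 per list and pairs with both genes in lists; partners, and the words and sequences shown, include some chosen after their values were seen. Members and lists were chosen with earlier results of these data known. The placement, matching and pairing steps were tested on simulated data. Alternatives were other windows, list lengths, single replicates and match distances.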

Additional observations from a re-analysis of the deposited data

How the results depend on the processing

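Over the alternatives the number of members ranged from 436 to 867 and that of ribosomal protein genes with a member from 40 to 51. The share of divergent pairs with a member was 28.6% with windows of 500 bp on both sides, 22.9% with 2000 bp upstream, 29.2% with 500 bp upstream and 100 bp downstream, and 27.4% with peak regions in place of summits. With the strongest 1610 peaks there were 436 members, 94.95% between the 5′ ends, 16.2% of pairs held one and 98.9% of members matched in both replicates. With the strongest 6440 pooled peaks the members' median percentile rank was 75.5, 31.0% of pairs held one and 63.1% matched. A match within 50 bp gave 76.7%. The cause of these shifts was not tested, apart from the list length and distance that the settings themselves change. With 1 replicate's strongest 3220 peaks alone, the median percentile rank ranged from 60.1 to 69.8 (62.4 in the thresholded list) and the share matched from 81.4 to 85.1%, where the match in that replicate's own list is fixed, so the range covers the other list only and says nothing of stability. Ribosomal protein genes with a member numbered 45 with either replicate alone. Members made up 16.6 to 32.9% of autosomal peaks over all alternatives. Of 132 recomputed word shares, 106 stayed inside the interval, and 22 of the other 26 came from another word window. The other 4 were TATAAA (6.20%), GAGAGA (13.3%) and TTTTTTTT (7.87%) without replicate 2, and TGATAA (4.56%) with the pooled list. No paired analysis was possible because there is only 1 group. Depth is unknown, so weak peaks cannot be weighed by it.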
